A study of Mus musculus with 9 samples.

Results

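The mouse mitochondrial genome, a small circle of DNA carried in many copies in nearly every cell, was followed here through the 37 genes whose symbol begins with mt-, out of 52381 genes in the deposited table. They comprise 13 protein-coding genes, 2 ribosomal RNA (rRNA) genes and 22 transfer RNA (tRNA) genes. The libraries are RNA sequencing of whole lung. The TMAO group holds 5 mice with acute lung injury (ALI) that received lipopolysaccharide (LPS) and trimethylamine N-oxide (TMAO), a metabolite that the liver forms from a gut bacterial product. The LPS-ALI group holds 4 mice with the same injury and no TMAO, so all 9 mice carry the LPS injury, and lungs without LPS are not analysed here. Each library comes from a separately numbered mouse. In the descriptions, LPS-ALI replicates 3 and 4 carry, after the group name, a code that starts with X, while every TMAO library and LPS-ALI replicates 1 and 2 have one that starts with B. What the letters mean is not stated, and since X occurs in the LPS-ALI group alone, its effect and that of the group cannot be told apart in those libraries. The labels state no strain, sex, age, dose, route or time, and they name platelets in the wording on RNA extraction. All 7 alveolar type 2 markers, among them the surfactant gene Sftpc, were above 0 in every library. Values are FPKM, fragments scaled to gene length and library size, and a difference is TMAO minus LPS-ALI in log2(FPKM + 1).

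Mitochondrial DNA is transcribed from both strands into long precursors by a dedicated polymerase. The tRNAs lie between most of the mRNAs and rRNAs, and cutting them out releases the other transcripts, which are then polyadenylated, stabilised or degraded gene by gene. All of the mRNAs encode membrane subunits of the respiratory chain or of ATP synthase, the enzymes that the injured lung epithelium and endothelium rely on for oxidative energy. The level of a mitochondrial transcript in whole tissue therefore depends on the cells present, their mitochondrial content and the handling of each transcript. In whole lung, fewer cells of a type and less RNA per cell cannot be told apart.

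Genes of the mitochondrial genome held a large part of the summed FPKM of every library, and none of them passed the test between TMAO and LPS-ALI lungs. They held 49.3%, 44.4%, 45.7%, 35.9% and 52.2% of the summed FPKM in TMAO replicates 1 to 5, and 39.9%, 44.1%, 48.1% and 33.4% in LPS-ALI replicates 1 to 4. The means were 45.5% ± 6.19 (SD, n = 5) in TMAO lungs and 41.4% ± 6.27 (SD, n = 4) in LPS-ALI lungs, and the groups overlapped widely. Without TMAO replicate 5 the difference of 4.15 percentage points was 2.48, and without TMAO replicate 4 it was 6.56. Without LPS-ALI replicates 3 and 4 in turn it was 6.38 and 1.50 points, and without both TMAO replicate 5 and LPS-ALI replicate 4 it was -0.17 points. Messenger RNAs carried nearly all of it, with 43.7% ± 5.75 in TMAO and 39.9% ± 5.95 in LPS-ALI lungs. The 2 rRNAs held 1.83% ± 0.533 in TMAO and 1.42% ± 0.558 in LPS-ALI lungs. The 22 tRNA genes were listed at 0 in all 9 libraries. Within the mRNA sum, mt-Atp8 at 204 bases alone held 23.6% to 29.2%, with the most in TMAO replicate 5. How the FPKM of so short a gene was formed is not known here. All of these values are shares of summed FPKM, not of fragments, and the share difference includes mt-Atp8.

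**Figure D1:**
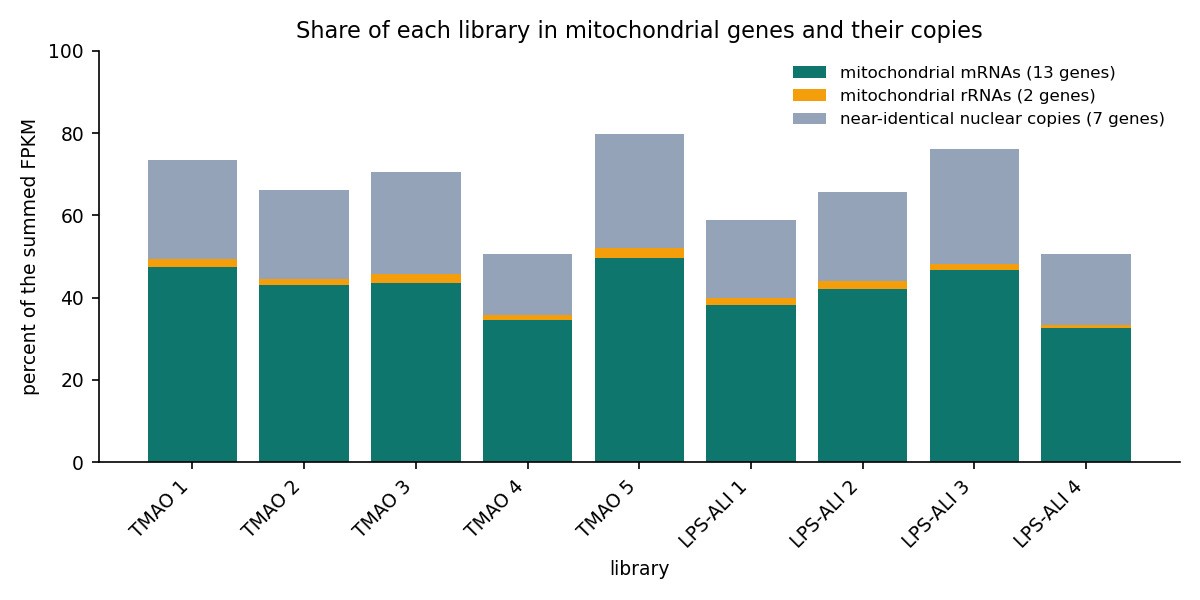
Percent of the summed FPKM of each library (vertical axis) in mitochondrial mRNAs, in mitochondrial rRNAs and in 7 near-identical nuclear copies, stacked, for 5 TMAO libraries on the left and 4 LPS-ALI libraries on the right. The 3 parts together range from 50.7% to 79.8% in TMAO libraries and from 50.7% to 76.2% in LPS-ALI libraries.

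All 13 mRNA genes and both rRNA genes passed the filter of at least 1 FPKM in at least 4 libraries, and none of the tRNA genes did. Of these 15 members 0 passed limma at an adjusted p under 0.05 over 11817 genes, where the share of all genes called was 0.0%. Before adjustment, 0 of the 15 had a limma p under 0.05, against 3.35% of all genes. In 5 of the 24 alternatives mt-Nd3 was under 0.05 before adjustment, and in 1 of these mt-Co2 was as well. In 0 of the 15 did the TMAO values lie apart from the LPS-ALI values, against 1.48% of all genes. The difference was above 0 in 13 members and below 0 in 2, with a median of 0.12, while 27.9% of all genes lay above 0 and the median gene stood at -0.17. Relative to the median gene the members ranged from 0.08 to 0.87 with a median of 0.29, and the limma adjusted p of every member was 0.998. The position of the members above the median gene changed with single libraries. All 15 lay above it with all 9 libraries, 8 without TMAO replicate 5, 10 without LPS-ALI replicate 4, and 0 without both. TMAO replicate 5 had 8846 genes of at least 1 FPKM, against 11158 to 12239 in the other 8 libraries.

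**Figure D2:**
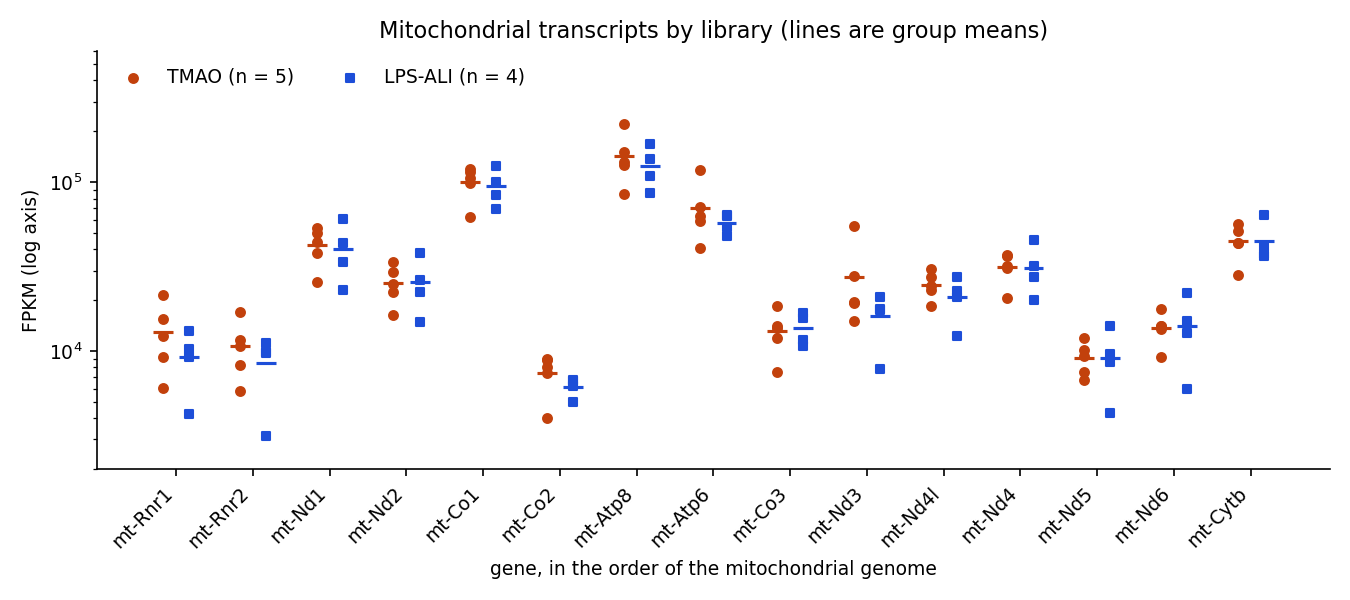
FPKM on a log axis for the 15 mitochondrial genes with values, in genome order, with 5 TMAO libraries left (circles) and 4 LPS-ALI libraries right (squares) in each pair and lines at the group means. The 2 groups overlap in every gene, and the largest ratio between means, 1.71, is that of mt-Nd3, with 27375 FPKM in TMAO and 16034 FPKM in LPS-ALI lungs.

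The rRNAs of the mitochondrial ribosome are encoded side by side at the start of the genome and separated by a tRNA gene. mt-Rnr1 (ENSMUSG00000064337, chrM:70-1024), for the small ribosomal subunit, had 12282, 9289, 15501, 6031 and 21367 FPKM in TMAO replicates 1 to 5 and 10359, 13146, 9272 and 4257 FPKM in LPS-ALI replicates 1 to 4, the order kept below. mt-Rnr2 (ENSMUSG00000064339, chrM:1094-2675), for the large subunit, had 10756, 8239, 11642, 5808 and 16977 FPKM in the TMAO libraries and 9914, 11215, 9761 and 3136 FPKM in the LPS-ALI libraries. In both genes TMAO replicate 5 was the highest and LPS-ALI replicate 4 the lowest of all 9 libraries, with the rest intermixed. Limma gave log2 differences of 0.46 ± 0.36 (SE) for mt-Rnr1 and 0.39 ± 0.37 (SE) for mt-Rnr2 (adjusted p = 0.998 each). Without TMAO replicate 5 they were 0.25 and 0.20, and without LPS-ALI replicate 4 they were 0.13 and -0.03. Without LPS-ALI replicates 3 and 4 they were 0.015 and -0.072. In intact mitochondria rRNA is far more abundant than any mRNA. Here the ratio of mt-Rnr1 to mt-Nd1 FPKM was 0.235 to 0.401 in TMAO and 0.153 to 0.309 in LPS-ALI libraries, in libraries from which rRNA had been depleted with probes before sequencing. The rRNA values were thus measured after depletion. How much of mt-Rnr1 and mt-Rnr2 it removed, and whether it was equal in the 9 libraries, was not tested.

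Complex I, the NADH dehydrogenase that starts the respiratory chain, has 7 subunits encoded in mitochondrial DNA. mt-Nd1 (ENSMUSG00000064341, chrM:2751-3707) had 49943, 38223, 44130.5, 25700.3 and 53268 FPKM in TMAO libraries and 33506, 43810.1, 60700.3 and 22859 FPKM in LPS-ALI libraries. mt-Nd2 (ENSMUSG00000064345, chrM:3914-4951), for a proton-pumping subunit, had 29404, 24848, 22379, 16276 and 33573 FPKM in TMAO libraries and 22522, 26513, 38080.1 and 14860.0 FPKM in LPS-ALI libraries. For both genes the LPS-ALI libraries included the highest value, in replicate 3, and the lowest, in replicate 4, so the TMAO values fell inside the LPS-ALI range. The log2 differences were 0.12 ± 0.27 (SE) and 0.03 ± 0.27 (SE). For mt-Nd4 (ENSMUSG00000064363, chrM:10167-11544) the values were 36795, 31774, 30949.5, 20577 and 37148 FPKM in TMAO libraries, against 27588, 31760.2, 45448 and 20177 FPKM in LPS-ALI libraries. For mt-Nd5 (ENSMUSG00000064367, chrM:11742-13565), the longest mitochondrial mRNA gene, they were 11958, 9388, 10117, 6720.3 and 7571 FPKM in TMAO libraries, against 8627, 9603, 14033 and 4274 FPKM in LPS-ALI libraries. Both again lay inside the LPS-ALI range in every TMAO library, with log2 differences of 0.04 ± 0.24 and 0.09 ± 0.30 (SE). mt-Nd6 (ENSMUSG00000064368, chrM:13552-14070) is the one mRNA gene on the minus strand. It had 17829, 14028, 13453, 9214 and 14021 FPKM in TMAO libraries and 12817, 15081, 22195 and 5979 FPKM in LPS-ALI libraries, a log2 difference of 0.08 ± 0.31 (SE) with TMAO values inside the LPS-ALI range. The library kit named in the labels does not mark strand, so fragments of mt-Nd6 and of the transcript opposite it cannot be told apart. The ratio of mt-Nd6 to mt-Nd5, its neighbour on the other strand, was 1.33 to 1.85 in TMAO and 1.40 to 1.58 in LPS-ALI libraries. This ratio compares libraries, not the levels of the genes, since mt-Nd6 has 519 bases and mt-Nd5 has 1824. The effect of length on FPKM is described below.

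The remaining complex I genes, mt-Nd3 and mt-Nd4l, are the shortest of the 7. mt-Nd3 (ENSMUSG00000064360, chrM:9459-9806), for a subunit with a cysteine-bearing loop at the quinone site, had 27843, 19449.7, 19344, 15058 and 55179.9 FPKM in TMAO libraries and 17625, 20971, 17730.3 and 7809 FPKM in LPS-ALI libraries. TMAO replicate 5 stood far above all other libraries and LPS-ALI replicate 4 far below them, while TMAO replicates 2 to 4 lay within the LPS-ALI range. The mean was 1.71 times as high in TMAO lungs, and the log2 difference of 0.70 ± 0.35 (SE) was the largest of the 15 (limma unadjusted p = 0.0666, adjusted p = 0.998). It was 0.41 without TMAO replicate 5, 0.38 without LPS-ALI replicate 4 and 0.09 without both. It was 0.35 without LPS-ALI replicates 3 and 4. The unadjusted limma p of mt-Nd3 was 0.00898 with FPKM rescaled to TPM, 0.0261 with nuclear scaling and 0.0127 with scaling to mitochondrial mRNA, with adjusted p of 1.00 in all 3. Leaving out LPS-ALI replicate 2 gave an unadjusted p of 0.0386 by limma for mt-Nd3. Leaving out TMAO replicate 4 gave 0.0285 for mt-Nd3 and 0.04997 for mt-Co2 by limma before adjustment. mt-Nd4l (ENSMUSG00000065947, chrM:9877-10173) had 30589, 22898, 24151, 18457 and 27428 FPKM in TMAO libraries and 20796, 22654, 27348 and 12359.5 FPKM in LPS-ALI libraries, with the lowest value in LPS-ALI replicate 4 and the other libraries overlapping. Its log2 difference was 0.29 ± 0.23 (SE).

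Complex III, which passes electrons to cytochrome c, has a single mitochondrially encoded subunit, cytochrome b. mt-Cytb (ENSMUSG00000064370, chrM:14145-15288) had 51290.4, 43382, 43875, 28039.9 and 56874 FPKM in TMAO libraries and 36717, 42067, 64221 and 37339 FPKM in LPS-ALI libraries. The lowest value was in TMAO replicate 4 and the highest in LPS-ALI replicate 3, and the log2 difference was -0.01 ± 0.23 (SE). Within the mRNA pool its share was 8.35%, 8.39%, 8.18%, 8.24% and 7.51% in TMAO libraries, against 8.35%, 7.87%, 9.74% and 10.3% in LPS-ALI libraries.

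Cytochrome c oxidase, complex IV, reduces oxygen to water, and its catalytic core is encoded by mt-Co1, mt-Co2 and mt-Co3. mt-Co1 (ENSMUSG00000064351, chrM:5328-6872), for the subunit that holds the oxygen-binding haem, had 115074, 98479, 119698, 62595 and 106281 FPKM in TMAO libraries and 83523, 100197, 125146 and 69418 FPKM in LPS-ALI libraries. mt-Co2 (ENSMUSG00000064354, chrM:7013-7696), for the subunit that takes electrons from cytochrome c, had 8012, 7395, 9006, 4017 and 8892 FPKM in TMAO libraries and 6714, 6225, 6662 and 4989 FPKM in LPS-ALI libraries. mt-Co3 (ENSMUSG00000064358, chrM:8607-9390) had 14060.5, 12036, 13645, 7537 and 18461 FPKM in TMAO libraries and 11588, 16851, 15643 and 10767 FPKM in LPS-ALI libraries. The 3 genes share TMAO replicate 4 as their lowest library, and in each the groups overlap. In mt-Co2 TMAO replicates 1, 2, 3 and 5 lay above every LPS-ALI library. The log2 differences were 0.09 ± 0.21 for mt-Co1, 0.23 ± 0.25 for mt-Co2 and -0.09 ± 0.25 for mt-Co3 (SE each). As deposited, mt-Co2 and mt-Co3 stood far below mt-Co1 in mean FPKM. In TMAO lungs the means were 7465 and 13148 against 100425, and in LPS-ALI lungs 6147 and 13712 against 94571.

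ATP synthase, complex V, takes a membrane subunit of its proton channel from mt-Atp6 and a small membrane subunit from mt-Atp8, which are read from one shared mRNA. mt-Atp6 (ENSMUSG00000064357, chrM:7927-8607) had 71235, 63451, 59147, 40563 and 117770.2 FPKM in TMAO libraries and 48333, 62763, 54406 and 63808 FPKM in LPS-ALI libraries. mt-Atp8 (ENSMUSG00000064356, chrM:7766-7969) had 150329.8, 131578, 126635, 85435 and 221189.7 FPKM in TMAO libraries and 109438, 136336, 168031 and 86638 FPKM in LPS-ALI libraries. TMAO replicate 5 was the highest and TMAO replicate 4 the lowest library in both, with the LPS-ALI values between them. The log2 differences were 0.22 ± 0.24 for mt-Atp6 and 0.17 ± 0.25 for mt-Atp8 (SE each). The coding regions overlap by 43 bases (chrM:7927-7969, plus strand of GRCm38, transcripts of GENCODE M21), shown here in capitals after the preceding 27 bases of mt-Atp8, because a fragment there belongs to both genes.
mt-Atp8/mt-Atp6: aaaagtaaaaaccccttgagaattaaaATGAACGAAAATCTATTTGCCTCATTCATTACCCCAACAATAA
mt-Nd4l and mt-Nd4 overlap in the same way by 7 bases (chrM:10167-10173), in capitals at the end of mt-Nd4l.
mt-Nd4l/mt-Nd4: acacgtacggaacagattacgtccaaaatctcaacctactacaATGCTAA
Neither labels nor files state how fragments of overlapping genes were counted. The ratio of mt-Atp8 to mt-Atp6 FPKM was 1.88 to 2.14 in TMAO libraries. It was 1.36 to 3.09 in LPS-ALI libraries, whose replicates 3 and 4 held the highest and the lowest ratio. The ratio of mt-Nd4l to mt-Nd4 was 0.721 to 0.897 in TMAO and 0.602 to 0.754 in LPS-ALI libraries. These ratios compare libraries, not the level of one gene with that of the other, since mt-Atp8 and mt-Nd4l are short.

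A further sequence feature sets 3 of the 13 mRNA genes apart. Of the 13, 8 end in TAA and 2 in TAG, while mt-Co3, mt-Nd4 and mt-Cytb end in a lone T that becomes a stop codon only when a poly(A) tail is added. The last 20 bases of these genes, with the incomplete codon in capitals, show this.
mt-Co3: catttattgatgaggatctT
mt-Nd4: aattacaggcctgacaataT
mt-Cytb: aatactaaaattatatccaT
Their log2 differences were -0.09 ± 0.25, 0.04 ± 0.24 and -0.01 ± 0.23 (SE), and those of the other 10 mRNA genes ranged from 0.03 to 0.70. The limma adjusted p was 0.998 for each of the 13, and mt-Co3 was 0.13 with its nuclear copy added. A link between this feature and the differences was not tested.

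A few libraries held the extremes, among them both X-coded ones. LPS-ALI replicate 3 was the highest of the 9 libraries in 7 of the 15 genes, and TMAO replicate 5 in 6. LPS-ALI replicate 4, also X-coded, was the lowest in 9 genes and TMAO replicate 4 in the other 6. The ratio of the highest to the lowest library was between 2.00 and 7.07 in every gene. Alveolar type 2 markers summed to 4795 to 10548 FPKM in TMAO libraries and to 1103 to 14166 FPKM in LPS-ALI libraries, with the 1103 in replicate 4. The same library had 2326 FPKM for the sum of 5 erythroid markers, all above 0 in every library, against 124 to 291 FPKM in the other 8. TMAO replicate 5 had the lowest sums of 6 macrophage and monocyte markers, 81.2 FPKM against 196 to 385 FPKM in the other 8 libraries, and of 7 capillary endothelial markers, 228 FPKM against 367 to 1072 FPKM. Of 8 cardiac muscle markers, a tissue rich in mitochondria that borders the lung, 3 were above 0 in every library and none was at 0 in all of them. They summed to 12.2 to 81.2 FPKM in TMAO libraries and to 8.06 to 50.0 FPKM in LPS-ALI libraries. Of 5 T and NK cell markers 4 were above 0 in every library, and their sum of 8.84 to 17.1 FPKM in TMAO lungs lay below the 23.5 to 55.6 FPKM of LPS-ALI lungs. Of 5 platelet markers 4 were above 0 in every library, and their sum was 18.6 to 27.4 FPKM in TMAO lungs, against 31.2 to 75.0 FPKM in LPS-ALI lungs. In all other marker lists the groups overlapped, those of neutrophils, ciliated cells, adipocytes and skeletal muscle included. Neutrophil markers summed to 7655 to 14678 FPKM in TMAO libraries and to 7462 to 20529 FPKM in LPS-ALI libraries. How often such sums lie apart in lists of other genes was not tested. The part of these cells in the mitochondrial values was not tested.

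Shares of the mitochondrial mRNA pool compare the groups within a complex. Complex I genes held 31.6% ± 1.40 in TMAO and 30.8% ± 4.33 in LPS-ALI lungs, and complex IV genes held 22.2% ± 3.17 in TMAO and 23.0% ± 0.507 in LPS-ALI lungs. Complex V genes held 38.0% ± 3.92 in TMAO and 37.1% ± 3.35 in LPS-ALI lungs, and the complex III gene held 8.13% ± 0.361 in TMAO and 9.07% ± 1.16 in LPS-ALI lungs (SD, n = 5 and n = 4 throughout). These shares do not rank the complexes, because complex V rests mostly on the short mt-Atp8 and complex IV genes share sequence with the copies described below. Only the 5 copies that cover at least 90% of their gene were added to the pool. Gm29216, a copy of part of mt-Co1, was left out, so its FPKM are missing from the complex IV share. With these 5 copies added, complex IV held 38.1% ± 1.72, complex V 32.6% ± 2.20 and complex I 23.6% ± 1.57 in TMAO lungs. In LPS-ALI lungs, with the same copies added, complex IV held 37.5% ± 1.03, complex V 32.4% ± 1.93 and complex I 23.8% ± 3.36. Complex V held 16.8% ± 2.96 in TMAO and 16.2% ± 5.11 in LPS-ALI lungs when mt-Atp8 was left out of the deposited pool. The mean compositions of the 2 groups differed over 2.99% of the pool, and single libraries differed from their own group mean over 1.74% to 9.33% in TMAO and 2.25% to 7.31% in LPS-ALI lungs. mt-Nd3 had the widest difference in share, with 4.72% ± 1.49 in TMAO and 3.19% ± 0.915 in LPS-ALI lungs. TMAO replicate 5 held 7.28% and the other TMAO libraries 3.61% to 4.53%, against 2.16% to 4.01% in LPS-ALI libraries.

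**Figure D3:**
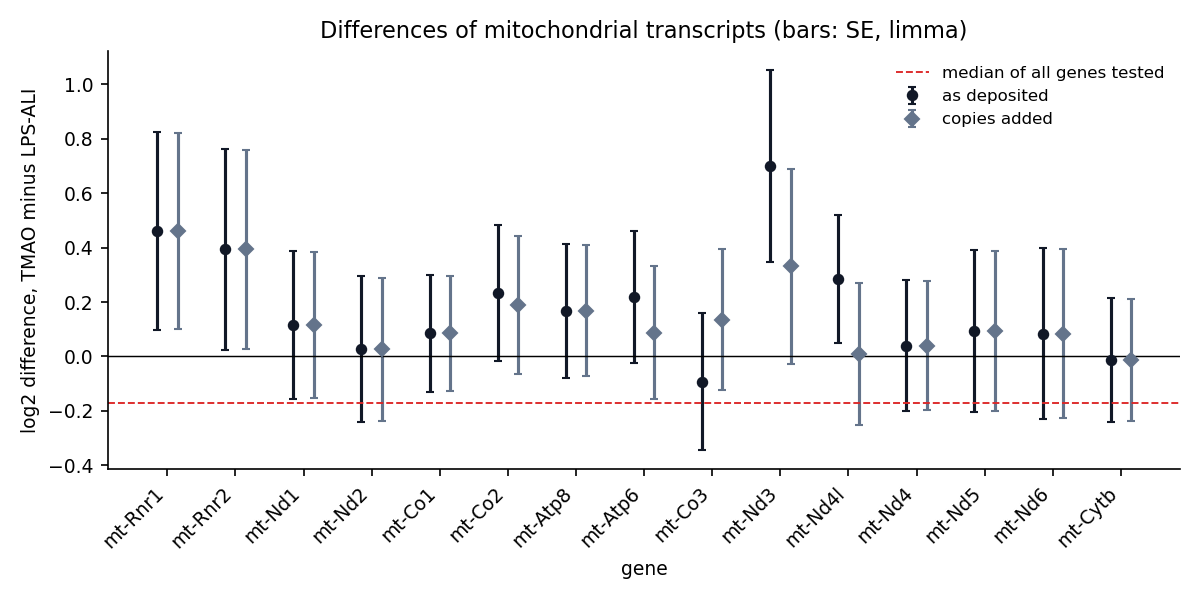
Log2 difference of FPKM + 1, TMAO minus LPS-ALI, with its SE from limma (vertical axis) for the 15 mitochondrial genes. Circles are values as deposited, and diamonds are those after 5 near-identical nuclear copies were added to their genes. The partial copy of mt-Co1 was not added. The dashed line is the median of all genes tested at -0.17, and mt-Nd3 is 0.70 as deposited and 0.33 with its copy added.

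Several nuclear genes in the table share their sequence with mitochondrial genes. Pieces of mitochondrial DNA have been inserted into the nuclear genome during evolution, and fragments from an identical stretch cannot be assigned to either place by sequence. A search of GENCODE M21 transcripts found 17 nuclear genes that matched a mitochondrial gene over at least 100 bases at 90% identity or more, and 7 of them matched at 99% or more. These 7 are annotated as unprocessed pseudogenes and lie together on the minus strand of chr1:24611535-24616197, within 4663 bases. Gm28661 matched mt-Co2, Gm28437 mt-Co3, Gm10925 mt-Atp6, Gm10222 mt-Nd4l and Gm28439 876 bases of mt-Nd4 at 100%, Gm28438 matched mt-Nd3 at 99.7% and Gm29216 the last 31.3% of mt-Co1 at 99.8%. The spacing between neighbouring copies equalled that of the mitochondrial genes in 5 of 6 cases, and no annotated copy covered mt-Atp8 in the 233 bases between Gm28661 and Gm10925. For mt-Co2 the annotated copy lacks the stop codon, in capitals, and is otherwise identical, as the ends of the 2 genes show (chrM:7654-7696, and chr1:24614885-24614924 on the minus strand).
mt-Co2: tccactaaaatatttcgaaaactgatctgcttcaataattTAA
Gm28661: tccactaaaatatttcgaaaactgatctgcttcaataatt
The first 33 bases of mt-Nd3 and Gm28438 hold the one base that differs between them, T3C counted from the start of mt-Nd3 and written in capitals.
mt-Nd3: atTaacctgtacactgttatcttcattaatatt
Gm28438: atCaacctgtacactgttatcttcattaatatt
Over the 483 bases aligned between mt-Co1 and Gm29216 the one difference is A1066T, again in capitals, near the start of that stretch. Gm29216 has 492 bases, and those outside the alignment were not compared.
mt-Co1: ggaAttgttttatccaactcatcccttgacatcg
Gm29216: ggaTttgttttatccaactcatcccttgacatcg

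The copies carried values on the scale of the mitochondrial genes. Gm28661 had 119340.4, 99467, 113879.8, 62348 and 171669.9 FPKM in TMAO libraries and 86707, 108668, 132158 and 64065 FPKM in LPS-ALI libraries, far above mt-Co2 in all 9. Gm28437 had 71394, 57945, 66435, 35717 and 110669 FPKM in TMAO libraries and 48672, 57742, 81628 and 44072 FPKM in LPS-ALI libraries, above mt-Co3 in all 9. Gm10925 had 52115, 42687, 55746, 23379 and 69032 FPKM in TMAO libraries and 41602, 47876, 84898 and 26538 FPKM in LPS-ALI libraries. Gm29216 had 58324, 45220.2, 56409, 19883 and 59577 FPKM in TMAO libraries and 29938, 41309.6, 53340.3 and 48414 FPKM in LPS-ALI libraries. In each of these 4 the groups overlapped. Gm28439 was listed at 0 in every library, and the 10 copies below 99% identity reached at most 4.20 FPKM, with 5 of them at 0 throughout. Together the 7 near-identical copies held 22.6% ± 4.84 of the FPKM in TMAO and 21.5% ± 4.76 in LPS-ALI lungs. With them, mitochondrial sequence held 68.1% ± 10.9 in TMAO and 62.8% ± 10.8 in LPS-ALI lungs.

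**Figure D4:**
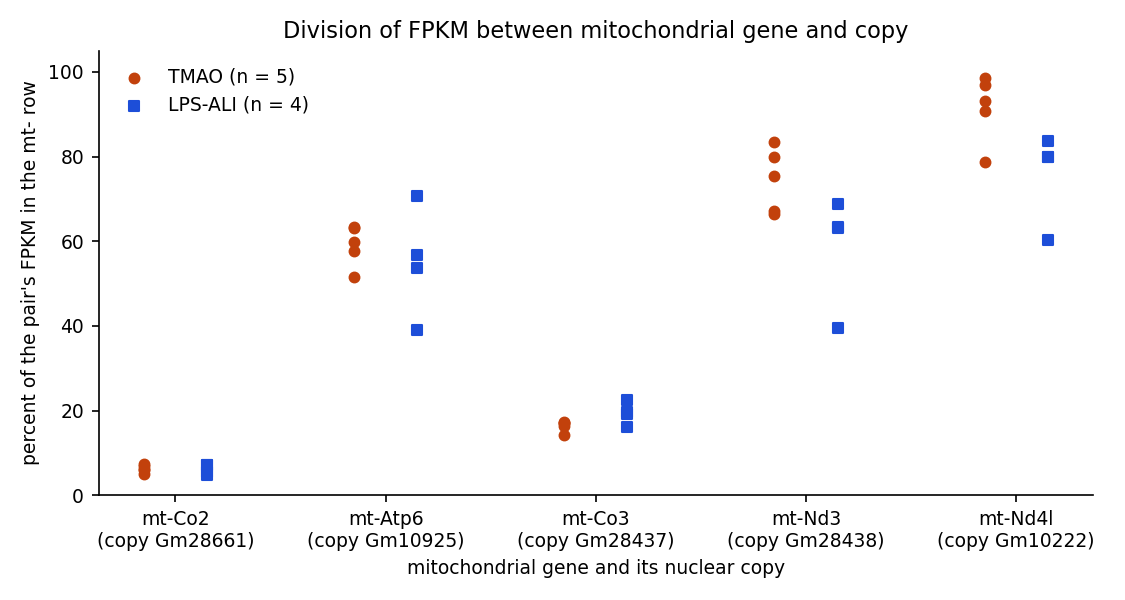
Percent of the summed FPKM of a mitochondrial gene and its near-identical nuclear copy that stands in the row of the mitochondrial gene (vertical axis), for 5 TMAO libraries (circles, left) and 4 LPS-ALI libraries (squares, right). mt-Co2 holds 4.80% to 7.33% of its pair in all libraries, and mt-Nd4l holds 78.6% to 98.6% in TMAO and 60.2% to 83.6% in LPS-ALI libraries.

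How a pair was divided differed from gene to gene. mt-Co2 held 6.30% ± 0.921 of its pair in TMAO and 6.16% ± 1.24 in LPS-ALI lungs, and mt-Co3 held 16.5% ± 1.27 in TMAO and 19.4% ± 2.66 in LPS-ALI lungs. mt-Atp6 held 59.1% ± 4.87 in TMAO and 55.0% ± 12.9 in LPS-ALI lungs. Added to their copies, mt-Co2 averaged 120806 ± 41159 FPKM in TMAO and 104047 ± 29801 FPKM in LPS-ALI lungs, and mt-Co3 averaged 81580 ± 31152 FPKM in TMAO and 71741 ± 18951 FPKM in LPS-ALI lungs. On that FPKM scale mt-Co2 was no longer the lowest of the 15 genes but above mt-Co1 as deposited, in the means of both groups. The low deposited mt-Co2 and mt-Co3 levels are therefore levels of their rows alone. The pair sum does not rank mt-Co2 above mt-Co1, since mt-Co2 is shorter and the partial copy of mt-Co1 was left out.

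For the 2 short complex I genes the division varied more between libraries. mt-Nd3 held 75.3%, 66.6%, 67.1%, 79.8% and 83.5% of its pair in TMAO libraries, against 68.9%, 63.4%, 39.5% and 63.0% in LPS-ALI libraries. mt-Nd4l held 93.1%, 78.6%, 90.7%, 96.9% and 98.6% in TMAO libraries, against 83.6%, 80.0%, 60.2% and 79.9% in LPS-ALI libraries. LPS-ALI replicate 3 was the lowest for both, and 4 of the 5 TMAO libraries lay above every LPS-ALI library for mt-Nd4l. Gm10222, the copy of mt-Nd4l, had 2275, 6221, 2473, 599 and 383 FPKM in TMAO libraries and 4069, 5668, 18048 and 3112 FPKM in LPS-ALI libraries, and the groups overlapped through TMAO replicate 2. Its log2 difference was -1.98 ± 0.68 (limma unadjusted p = 0.0110, adjusted p = 0.998). When every library was scaled to its mitochondrial mRNA, limma called 9 of 11902 genes, 0.0756%, and 0 of the mitochondrial genes. Gm10222 was among the 9 at -2.12 ± 0.37 (limma adjusted p = 2.86e-05). In that fit the variance came from the trend over all genes, so this SE and p do not measure the spread of Gm10222 itself. The sequence of Gm10222 is identical to the first 294 bases of mt-Nd4l, so the division of fragments and the level of the copy cannot be told apart here. Its highest value, 18048 FPKM, was in the X-coded LPS-ALI replicate 3, and its lowest, 383 FPKM, in TMAO replicate 5. The cause of its difference was not tested. Gm28438, the copy of mt-Nd3, had 9121, 9774, 9484, 3810.5 and 10871 FPKM in TMAO libraries and 7967, 12102, 27124 and 4580.0 FPKM in LPS-ALI libraries.

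With each of 5 copies added to its gene, 0 of 15 members passed limma and the differences were above 0 in 14 members. The difference of mt-Nd3 was then 0.33 ± 0.36 (SE), and 0.08 without TMAO replicate 5 as well. mt-Nd4l was 0.01, mt-Co3 was 0.13 in place of -0.09, mt-Co2 was 0.19 and mt-Atp6 was 0.09.

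The tRNA genes, 14 on the plus and 8 on the minus strand, had no value above 0 in any library. Mature tRNAs are very short and heavily modified, and standard libraries capture them poorly. All 22 genes are 59 to 75 bases long. mt-Tv (chrM:1025-1093), between the rRNA genes, and mt-Tl1 (chrM:2676-2750), between mt-Rnr2 and mt-Nd1, are shown because they flank the rRNA genes in the precursor. Their last 3 bases are in capitals. Mature tRNAs end in CCA, which is added after transcription, and of the 22 annotated genes 1, mt-Ty, ends in CCA.
mt-Tv: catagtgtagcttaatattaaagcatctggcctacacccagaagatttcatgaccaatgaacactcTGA
mt-Tl1: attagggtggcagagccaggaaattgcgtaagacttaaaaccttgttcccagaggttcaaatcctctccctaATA
The zeros were not particular to mitochondrial tRNA. Among 1515 genes with at most 100 exon bases, 0 had a value above 0 in any library. Above 0 were 1 of 1928 genes of 101 to 150 bases, 19 of 750 of 151 to 200 bases, and 8.14% and 16.1% of genes of 201 to 300 and 301 to 500 bases. Among longer genes it was 58.5%. The zeros therefore do not show whether the tRNAs were present or absent in the lungs.

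**Figure D5:**
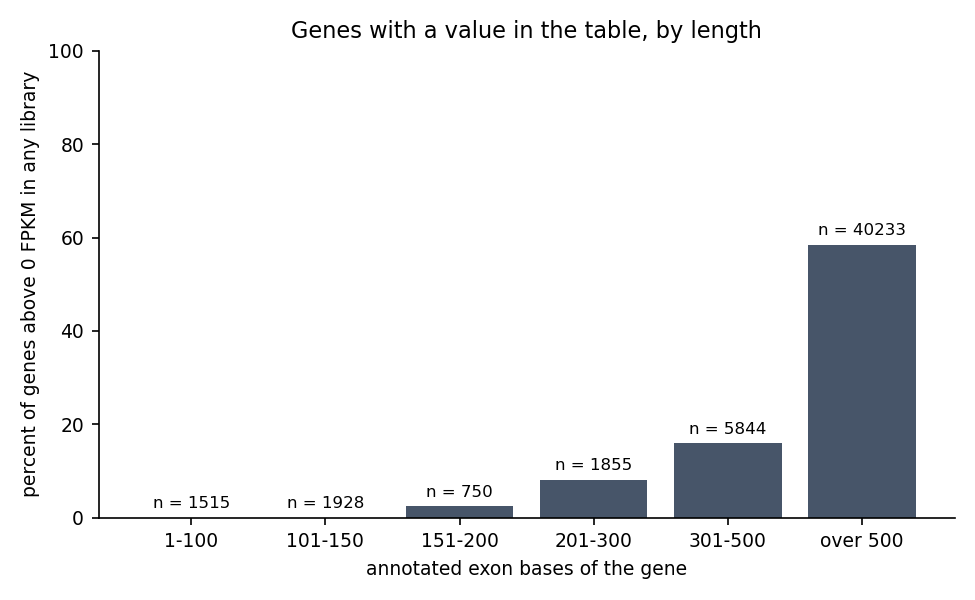
Percent of genes with an FPKM above 0 in at least 1 of the 9 libraries (vertical axis) by annotated exon bases, with the number of genes above each bar. All 22 mitochondrial tRNA genes fall in the class of 1 to 100 bases, in which 0 of 1515 genes have a value, while 58.5% of genes over 500 bases do.

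Length also bears on the levels of the short mRNAs. The lowest FPKM values of single-exon genes under 1500 bases fell near whole multiples of a fixed step in each library when 214 to 222 bases were taken off the gene length. At the best-fitting step and length, 73.8% to 81.5% of these values lay within 0.15 of a whole multiple, where an even spread would place 30% there. The step and length were chosen for this closeness, so the 30% holds for a step set beforehand and does not test the fitted one. The step corresponds to 9.78, 8.86, 9.67, 9.40 and 5.40 M (M, 1e6) fragments in TMAO libraries and to 7.11, 10.8, 14.6 and 10.9 M in LPS-ALI libraries, an estimate, since totals are not stated in the labels or files. A length reduced in this way raises the FPKM of short genes. mt-Nd4l at 297 bases and mt-Nd3 at 348 are members close to it in length. mt-Atp8 at 204 bases is shorter than the bases taken off, so this reading gives no value for it, and how its FPKM was formed is not known here. Levels of these 3 genes are therefore not ranked against those of longer genes. On the same reading, the 12 members of at least 500 bases held 39.7%, 33.4%, 37.5%, 21.6% and 43.1% of the fragments in TMAO libraries, against 29.1%, 34.9%, 43.9% and 23.5% in LPS-ALI libraries.

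Among these 12 genes as deposited, mean FPKM followed 1 order in both groups over the top 8. The order ran from mt-Co1 through mt-Atp6, mt-Cytb, mt-Nd1, mt-Nd4, mt-Nd2 and mt-Nd6 to mt-Co3. It is an order of deposited rows and does not rank transcript levels. A reduced length raises mt-Nd6 at 519 bases and mt-Co3 at 784 more than the longer genes. The mt-Atp6 and mt-Co3 rows also hold only part of their pairs. mt-Co1 averaged 100425 ± 22667 FPKM in TMAO lungs and 94571 ± 23952 FPKM in LPS-ALI lungs. mt-Cytb and mt-Nd1, next to each other in that order, averaged 44692 ± 10858 FPKM in TMAO lungs and 45086 ± 12978 FPKM in LPS-ALI lungs, and 42253 ± 10888 FPKM in TMAO lungs and 40219 ± 16112 FPKM in LPS-ALI lungs, means that lie closer than the SD of either. mt-Nd5 near the bottom averaged 9151 ± 2078 FPKM in TMAO lungs and 9134 ± 4004 FPKM in LPS-ALI lungs.

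Nuclear genes that replicate and express mitochondrial DNA, with regulators of mitochondrial biogenesis and clearance, were followed as a list of 77, of which 76 were in the table and 72 were tested. Of these 0 passed limma after adjustment, and at an unadjusted p under 0.05 there were 0 higher and 1 lower, against 0.423% and 2.93% of all genes. Their median difference was -0.19, beside -0.17 for all genes. The gene at an unadjusted p under 0.05 was Endog, a mitochondrial nuclease, with 3.45 ± 1.05 FPKM in TMAO and 6.74 ± 2.11 FPKM in LPS-ALI lungs (limma unadjusted p = 0.0342, adjusted p = 0.998). Polrmt, the mitochondrial RNA polymerase, had 3.09, 2.78, 5.04, 2.90 and 3.33 FPKM in TMAO libraries, against 4.15, 4.39, 9.29 and 8.49 FPKM in LPS-ALI libraries. TMAO replicate 3 lay within the LPS-ALI range and the other TMAO libraries below it, and the log2 difference was -0.73 ± 0.35 (limma adjusted p = 0.998). Next by p were Mterf3, a negative regulator of mitochondrial transcription, with 10.3 ± 2.26 FPKM in TMAO and 16.8 ± 3.27 in LPS-ALI lungs, and Top1mt, a mitochondrial topoisomerase, with 1.17 ± 0.775 FPKM in TMAO and 2.16 ± 0.190 in LPS-ALI lungs. Fastk, whose mitochondrial isoform is needed for mt-Nd6 mRNA, had 9.69 ± 2.80 FPKM in TMAO and 16.9 ± 8.50 FPKM in LPS-ALI lungs. Its LPS-ALI replicate 3 had 29.6 FPKM, and the other LPS-ALI libraries had 11.4 to 13.4 FPKM. Pnpt1, an RNA-degrading exonuclease, had 2.78 ± 1.49 FPKM in TMAO and 4.47 ± 0.737 FPKM in LPS-ALI lungs. TMAO replicate 5 was the lowest library in Endog, Mterf3, Top1mt, Fastk and Pnpt1, and their means were not recalculated without it. The groups did not overlap in Endog, Mterf3 and Top1mt, which were named for their small p, and overlapped in the other tested genes of the list. Of all genes, 1.36% were lower without overlap. Tfam, which packages the genome and starts transcription, had 10.4 ± 6.51 FPKM in TMAO and 11.7 ± 3.68 in LPS-ALI lungs. TMAO replicate 5 had 1.45 FPKM of Tfam, and the TMAO mean without it was 12.6, above that of LPS-ALI lungs. The mRNA-stabilising partners Lrpprc and Slirp had 2.07 ± 1.42 and 19.2 ± 6.34 FPKM in TMAO lungs, against 2.45 ± 0.671 and 28.3 ± 5.85 FPKM in LPS-ALI lungs. Lrpprc was at 0.09 FPKM in TMAO replicate 5, and without that library the TMAO mean was 2.56, above that of LPS-ALI lungs. Slirp was at 28.2 FPKM in TMAO replicate 5, above the other TMAO libraries, and without it the TMAO mean was 16.9. For Polrmt the TMAO mean without replicate 5 was 3.45. Both means stayed below those of LPS-ALI lungs, 28.3 FPKM for Slirp and 6.58 FPKM for Polrmt. Ppargc1a, a coactivator that drives mitochondrial biogenesis, was below the filter, with 0.0820 ± 0.0606 FPKM in TMAO and 0.270 ± 0.321 FPKM in LPS-ALI lungs.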

How the data were processed

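RNA of 9 mouse lungs was sequenced, 5 from the TMAO group and 4 from the LPS-ALI group, as the labels name them. Per the labels' protocols, rRNA was depleted and NEBNext Ultra II libraries were made. Per the submitters' processing notes, fastp, HISAT2, SAMtools and featureCounts were used with mm10. Counting settings and gene lengths are not stated there. The authors deposited FPKM values, 1 column per library, and no column was left out.

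Rows with symbols beginning mt- were taken. Values were tested as log2(FPKM + 1) in limma 3.58.1 (R 4.3.3) with a trend, two-sided, at a Benjamini-Hochberg adjusted p of 0.05. The 11817 tested genes reached 1 FPKM in 4 or more libraries. The pseudocount understates changes of low genes. On simulated data with 11817 genes it recovered 8 of 100 genes changed 2-fold and 67 of 100 changed 4-fold in this comparison, and called 4 unchanged genes. P-values rest on the spread between these mice, moderated towards the trend of all genes. In the fit scaled to mitochondrial mRNA they rested on that trend, not on the spread of the single gene. Coordinates and sequences come from GENCODE M21 (GRCm38), in which 52125 of the 52381 genes were found, and copies were sought with blastn 2.17.0. Pairs were summed where the copy covered at least 90% of the gene. Other steps ran in Python 3.11.15 with pandas 2.3.3, and matplotlib 3.10.9 drew the figures.

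The members and lists were chosen with earlier results of these data known. All mitochondrial mRNAs and rRNAs were named. From the nuclear list the 6 smallest p and Polrmt, Tfam, Lrpprc, Slirp and Ppargc1a by role were named, and of the copies the 4 with the highest mean. Gm28438, Gm10222 and Gm28439 were named after their values were seen, and the search for the effect of gene length was added then too. Alternatives were pseudocount, filter, scaling, variance model, replicate block and library removal. Adding the copies was chosen after seeing the data.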

Additional observations from a re-analysis of the deposited data

Results flagged for a closer look

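Within groups, 6 of 98 sets of 4 or 5 libraries held a library far from the others, where chance flags about 1 in 20. The shares of the mitochondrial mRNA pool gave 4 of these, all in TMAO replicate 5. There mt-Atp6 held 15.5% and the other TMAO libraries 11.0% to 12.3%, and mt-Nd3 held 7.28% and the others 3.61% to 4.53%. In the same library mt-Nd5 held 0.999% and the others 1.82% to 1.98%, and mt-Cytb held 7.51% and the others 8.18% to 8.39%. Of the FPKM of mt-Nd4l and Gm10222 together, mt-Nd4l held 60.2% in LPS-ALI replicate 3, while LPS-ALI replicates 1, 2 and 4 had 79.9% to 83.6%. Gm28438, the copy of mt-Nd3, had 3810.5 FPKM in TMAO replicate 4 and 9121 to 10871 FPKM in the other TMAO libraries. TMAO replicate 5 was also the library with the fewest implied fragments. The part of depth in these values was not tested.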

How the results depend on the processing

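In none of 24 alternatives, 21 of them planned, did limma call any of the 15 members. The smallest adjusted p of a member was 0.386 and the largest 1.00. Of 360 comparisons of a member with an alternative, 303 kept the sign and 57 reversed it; mt-Co2 and mt-Nd3 never reversed. Without LPS-ALI replicate 4 and TMAO replicate 5 the log2 differences were -0.089 (mt-Rnr1), -0.22 (mt-Rnr2), -0.22 (mt-Nd1), -0.32 (mt-Nd2), -0.081 (mt-Co1), -0.17 (mt-Atp8), -0.22 (mt-Nd4), -0.17 (mt-Nd5), -0.29 (mt-Nd6), -0.34 (mt-Co3) and -0.19 (mt-Cytb). Scaled to mitochondrial mRNA they were -0.021 (mt-Nd1), -0.11 (mt-Nd2), -0.052 (mt-Co1), -0.10 (mt-Nd4), -0.043 (mt-Nd5) and -0.053 (mt-Nd6). Library weights gave -0.045 (mt-Rnr2), -0.084 (mt-Nd2), -0.018 (mt-Nd6) and 0.070 (mt-Cytb). Without the X-coded LPS-ALI replicates 3 and 4 the values were -0.072 (mt-Rnr2), -0.022 (mt-Nd5), -0.051 (mt-Nd6) and 0.15 (mt-Cytb). mt-Co3 was 0.13 and mt-Cytb 0.22 by median-of-ratios, 0.0076 and 0.088 by nuclear scaling, and 0.36 and 0.22 with copies added and nuclear scaling. With copies added mt-Co3 was 0.13, and without TMAO replicate 5 as well, mt-Nd2 was -0.086, mt-Atp8 -0.0054, mt-Atp6 -0.095, mt-Nd4 -0.027 and mt-Nd4l -0.0067. The cause of these reversals was not tested.

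Leaving out 1 library at a time gave mt-Rnr1 0.13 to 0.70, mt-Rnr2 -0.03 to 0.59, mt-Nd1 -0.12 to 0.34, mt-Nd2 -0.21 to 0.25, mt-Co1 -0.05 to 0.25, mt-Co2 0.14 to 0.44, mt-Atp8 -0.0054 to 0.34, mt-Atp6 0.01 to 0.40, mt-Co3 -0.23 to 0.094, mt-Nd3 0.38 to 0.87, mt-Nd4 -0.15 to 0.24, mt-Nd5 -0.23 to 0.34, mt-Nd6 -0.28 to 0.35, mt-Cytb -0.11 to 0.17 and mt-Nd4l 0.05 to 0.44. The median member ranged from -0.05 to 0.33, the share difference from 1.50 to 6.56 points, and the composition difference from 2.52% to 4.07%.

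The main fit did not pair same-numbered libraries, whose deviation correlations were 0.06, -0.01, -0.03 and -0.13. These values show little shared deviation and cannot exclude a pairing in the design. With the replicate block, which leaves TMAO replicate 5 without a partner, 0 members passed and the median member was 0.06. Reversed were mt-Nd2 at -0.086, mt-Atp8 at -0.0054 and mt-Nd4 at -0.027.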
